A study of Mus musculus with 6 samples.

Results

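The reactive astrocyte genes described here are 33 mouse genes whose transcripts are used to recognise astrocytes that have responded to injury or inflammation. They were taken by gene symbol from a table of 24421 genes, and all 33 symbols were found in it. The set joins 13 genes shared by most reactive states, 7 of the inflammation type, 11 of the injury type, and Stat3 and Lgals3. The cells were cortical astrocytes carrying CD51 (integrin alpha V), labelled in CD51-Flp mice by a virus that expresses the Gq-coupled designer receptor hM3D with mCherry from a GFAP promoter once Flp has recombined it. Both groups therefore carried the receptor. One group of 3 libraries came from mice given clozapine-N-oxide (CNO), the drug that activates hM3D, and the other 3 came from mice given saline, each 2 times per day from postnatal day 7 to 21. The mCherry-positive cells were sorted on day 21. There was no CNO group without the receptor, so effects of CNO itself and of receptor activation cannot be told apart. Whether a library came from 1 animal or a pool is not stated, so what the p-values capture is the variation among 6 libraries, which may be partly technical.

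Astrocytes that react to damage enlarge their scaffold of intermediate filaments and switch on secreted, adhesive and metabolic genes. A main route runs from cytokines of the interleukin-6 family through their receptors to the transcription factor STAT3, which drives Gfap and many other reactive genes. Microglia can add interleukin-1 alpha, TNF and C1q, which in mice push astrocytes to the inflammation type. Several genes of the set are not specific to astrocytes: Cd14, Srgn and Lgals3 are also transcribed by microglia and macrophages, Vim and Tm4sf1 by vascular cells, and Gbp2 and Iigp1 by many cells exposed to interferon.

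Regulatory sequence of this set is shown for the 2 genes with values in every library whose promoters held one of 2 searched motifs, the STAT motif TTCNNNGAA and the AP-1 motif TGANTCA, each on both strands. The windows are RefSeq promoters on GRCm38.p6, 300 bases long, given 5′ to 3′ on the strand of the gene, with the motif in capitals. The Gfap window is chr11:102897151-102897450 on the minus strand, and its capitals mark a STAT motif that begins 2 bases before the start site. The Gbp2 window is chr3:142620413-142620712 on the plus strand, and its capitals mark an AP-1 motif 102 bases before the start site.
Gfap: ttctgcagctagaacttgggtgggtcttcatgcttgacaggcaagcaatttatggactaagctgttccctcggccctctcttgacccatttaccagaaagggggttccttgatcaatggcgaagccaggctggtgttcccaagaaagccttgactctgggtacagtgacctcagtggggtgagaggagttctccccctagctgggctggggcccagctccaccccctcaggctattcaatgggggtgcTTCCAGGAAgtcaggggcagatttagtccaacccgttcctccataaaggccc
Gbp2: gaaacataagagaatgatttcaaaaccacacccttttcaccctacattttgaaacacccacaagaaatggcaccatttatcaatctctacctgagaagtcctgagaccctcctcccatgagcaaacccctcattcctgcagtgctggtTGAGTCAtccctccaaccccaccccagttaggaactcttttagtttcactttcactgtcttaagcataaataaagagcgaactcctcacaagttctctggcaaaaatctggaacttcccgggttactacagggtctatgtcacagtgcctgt
Of the 33 genes, 29 had a promoter in the RefSeq table. The STAT motif stood in a promoter of 5 of these 29 genes (17.2%), namely Emp1, Gfap, Sphk1, Steap4 and Tgm1, and in 9.55% of all 27025 genes with a promoter. The AP-1 motif stood in 4 of the 29 (13.8%), namely Emp1, Gbp2, Osmr and Sphk1, and in 8.97% of all genes. A match of letters is a description and not evidence of binding.

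Levels are given as normalized counts, the authors' deposited values, in which reads per gene were scaled by a factor of each library. The libraries held 3908076 reads in CNO 1, 17102657 and 19224186 in the other CNO libraries, and 12010901 to 19052161 in the saline libraries. CNO 1 stood apart in depth, and a single read was worth 4.23 normalized counts there against 0.503 to 0.970 elsewhere. Of the 13028 genes tested, 35.2%, 8.93% and 20.1% were at 0 reads in CNO 1, 2 and 3, against 3.39% to 3.88% in the saline libraries. With every library thinned to the size of CNO 1, the CNO shares were 35.2%, 12.4% and 26.7% and the saline shares 4.48% to 5.73%. Xist had 21466 normalized counts in CNO 2, 35033 in CNO 3 and 35117 in saline 4, against 25.4 to 885.3 in the other libraries, so libraries with high Xist stood in both groups, and saline 4 also held 212.9 of Y-linked Ddx3y. Itgav, which encodes CD51, had 3710 to 4378 normalized counts in CNO and 3924 to 5338 in saline.

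No reactive astrocyte gene was called higher or lower in the cells of mice given CNO by the test across all genes. The test was limma on log2 of the normalized count plus 1, run on genes with a mean of at least 10 and adjusted by Benjamini-Hochberg at 0.05. Of the 33 genes, 24 reached that mean, 9 did not, and 0 of the 24 were called in either direction. Over all tested genes, 0.0154% were called higher, which were the myelin genes Mbp and Mobp, and 0% lower. At an unadjusted p under 0.05, 0 of the 24 genes were higher in CNO, where 2.28% of all tested genes were, and 1 was lower, Clcf1, where 7.25% of all tested genes were. The count tests on recovered reads also called 0 of the 24. In edgeR 0% of all genes were called higher and 0% lower, in limma-voom 0.123% and 0%, and in DESeq2 0.53% and 1.38%. At an unadjusted p under 0.05, edgeR had 0 of the 24 in either direction, beside 3.63% of all genes higher and 5.7% lower. DESeq2 had Synm as higher and 0 lower, beside 4.24% higher and 7.15% lower. Limma-voom had 0 higher and Gbp2 as lower, beside 2.31% higher and 8.99% lower.

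**Figure D1:**
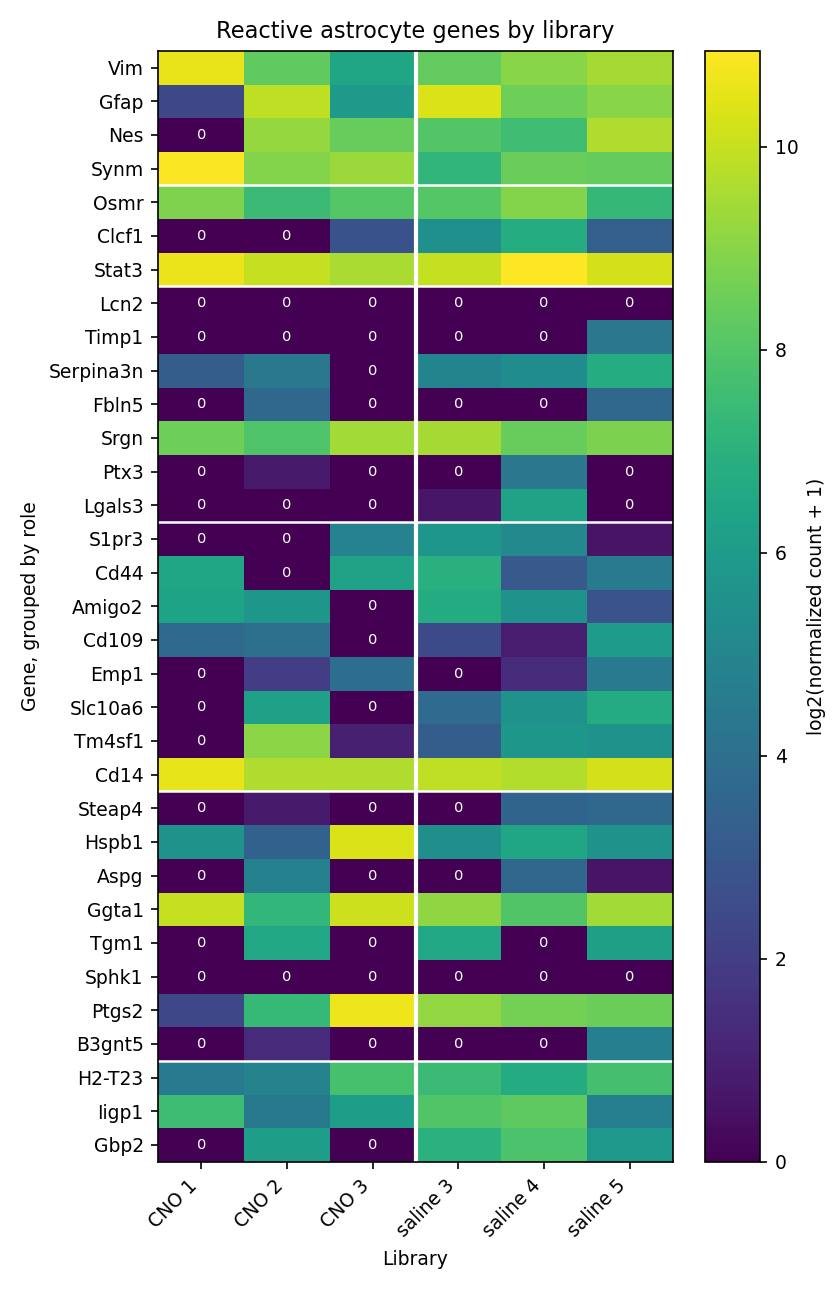
Heat map of log2(normalized count + 1) of the 33 reactive astrocyte genes (rows, grouped by role and split by white lines) in each library (columns, CNO left and saline right), with a white 0 where no read was counted. Cd14, Stat3, Srgn, Ggta1 and Osmr are present in all 6 libraries, and Lcn2 and Sphk1 in none.

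Fold changes leaned to lower values in CNO, as they did for genes in general. Of the 24 tested genes, 20 had a log2 fold change below 0 (83.3%) and 4 above it (16.7%), beside 68.3% below and 31.7% above over all tested genes. Their median was -1.27, against -0.89 over all tested genes. At matched levels the reactive genes and all genes lay close together. Among the 10 reactive genes with a mean of 10 to 100 the median was -2.27, and over the 4392 tested genes of that level it was -2.28. Among the 12 with a mean of 100 to 1000 it was -0.71, and over the 6397 tested genes of that level it was -0.83. The 2 genes above that, Stat3 and Cd14, had a median of -0.17, where 2239 tested genes had 0.35. The 9 tested genes of the shared set had a median of -0.60, the 6 of the inflammation type -0.97 and the 7 of the injury type -1.96. The median level fell in the same order, from 299.0 to 133.6 to 42.1 normalized counts. Whether the types differ beyond their level was not tested. These medians cover only genes that reached the mean of 10, and 5 of the 24 (S1pr3, Serpina3n, Clcf1, Cd109 and Lgals3) reached it through the saline libraries alone. They describe the genes and are not a test of the set.

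**Figure D2:**
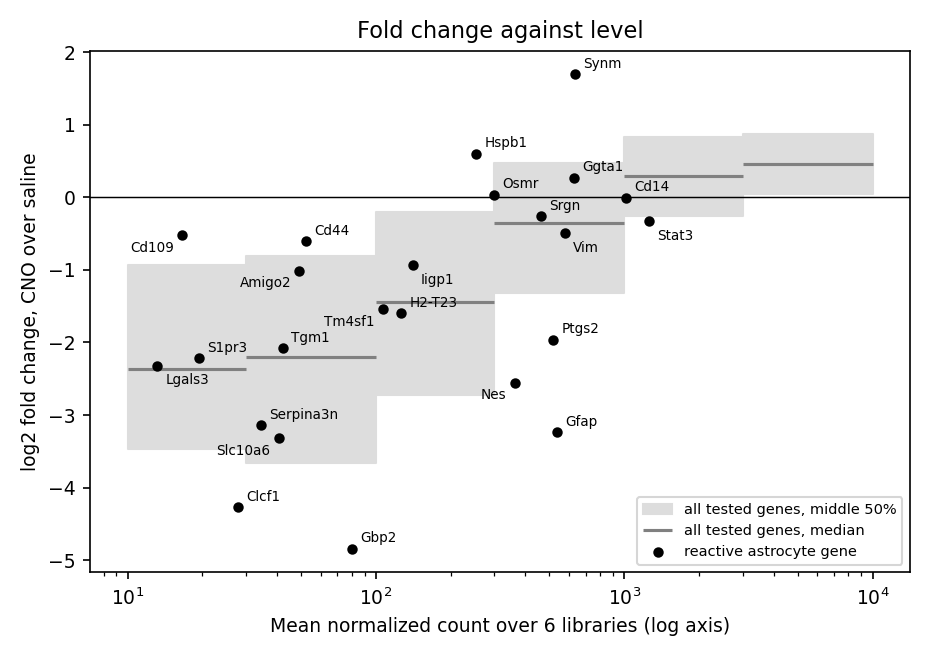
Log2 fold change of CNO over saline (vertical axis) against the mean normalized count over 6 libraries (horizontal log axis) for the 24 tested reactive astrocyte genes, over the median and middle 50% of all tested genes in bands of level. Of the 24 points 13 lie within the grey band of their level, 5 above it (Hspb1, Cd44, Osmr, Synm and Cd109) and 6 below it (Gfap, Nes, Gbp2, Clcf1, Ptgs2 and Stat3).

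The values differed more between CNO libraries than between saline libraries. The median over the 24 genes of the SD of log2 values was 2.27 within CNO and 0.996 within saline, and over all tested genes it was 2.15 within CNO and 0.812 within saline. In 18 of the 24 genes the SD was larger in CNO, beside 10504 of all 13028 tested genes. A single library held over 75% of the CNO total for 11 of the 24 genes, and a single library held over 75% of the saline total for 3. Where a CNO mean is given below, it is therefore often the value of 1 library.

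Intermediate filament genes, which form the cytoskeleton of the reactive cell, did not move as a block. Gfap, the main filament of mature astrocytes (ENSMUSG00000020932.14, chromosome 11, 102887336 to 102900912, GRCm38), had 4.23, 952.2 and 59.2 normalized counts in CNO 1, 2 and 3, against 1307, 373.8 and 507.3 in saline 3, 4 and 5. CNO 2 lay within the saline range, CNO 3 below it, and CNO 1 held a single read. The mean was 338.6 ± 532 in CNO and 729.3 ± 504 in saline (SD, n = 3 each), and the log2 fold change of -3.23 ± 1.68 (SE) did not pass in limma (adjusted p = 0.558). That value rested on which CNO library was included, at -1.39 without CNO 1 and -5.15 without CNO 2, and it was -1.10 in DESeq2.

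Vim, the vimentin filament also found in vascular cells, had 1513, 309.3 and 87.3 normalized counts in CNO and 315.8, 512.3 and 713.6 in saline. The CNO libraries thus spanned the saline range on both sides (log2 fold change -0.50 ± 1.08, limma adjusted p = 0.869). Nes, which encodes nestin, a filament of progenitors and of reactive astrocytes, had 0, 586.7 and 335.7 in CNO and 260.2, 191.3 and 799.7 in saline. Its log2 fold change of -2.56 ± 2.15 (limma adjusted p = 0.670) came from the zero in CNO 1 and was 0.38 without that library.

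Synm was the one tested gene of the set whose lowest CNO value exceeded its highest saline value (1 of 24, 4.17%, beside 4.57% of all tested genes). It encodes synemin, a filament protein that binds vimentin and GFAP (ENSMUSG00000030554.16, chromosome 7, 67730160 to 67759742). Normalized counts were 1868, 475.7 and 631.6 in CNO and 147.4, 343.4 and 324.1 in saline, and the nearest pair of libraries across groups stood at 475.7 and 343.4. The means were 991.7 ± 763 in CNO and 271.6 ± 108 in saline, a ratio of 3.65, with a log2 fold change of 1.69 ± 0.88 (limma adjusted p = 0.555, DESeq2 adjusted p = 0.305, 0.248 to 0.910 over the alternatives). It was 1.11 without CNO 1 and 2.09 without CNO 2. On the other strand, exons of Synm share 84 bases with Ttc23 and 426 with Gm45102, the last of which is not analysed here, and whether counting used strand is not known here. Ttc23 had 1931 normalized counts in CNO 1, 22.9 and 350.2 in the other CNO libraries and 38.2 to 156.1 in saline, so it was also highest in CNO 1, and its part in the Synm value was not tested.

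**Figure D3:**
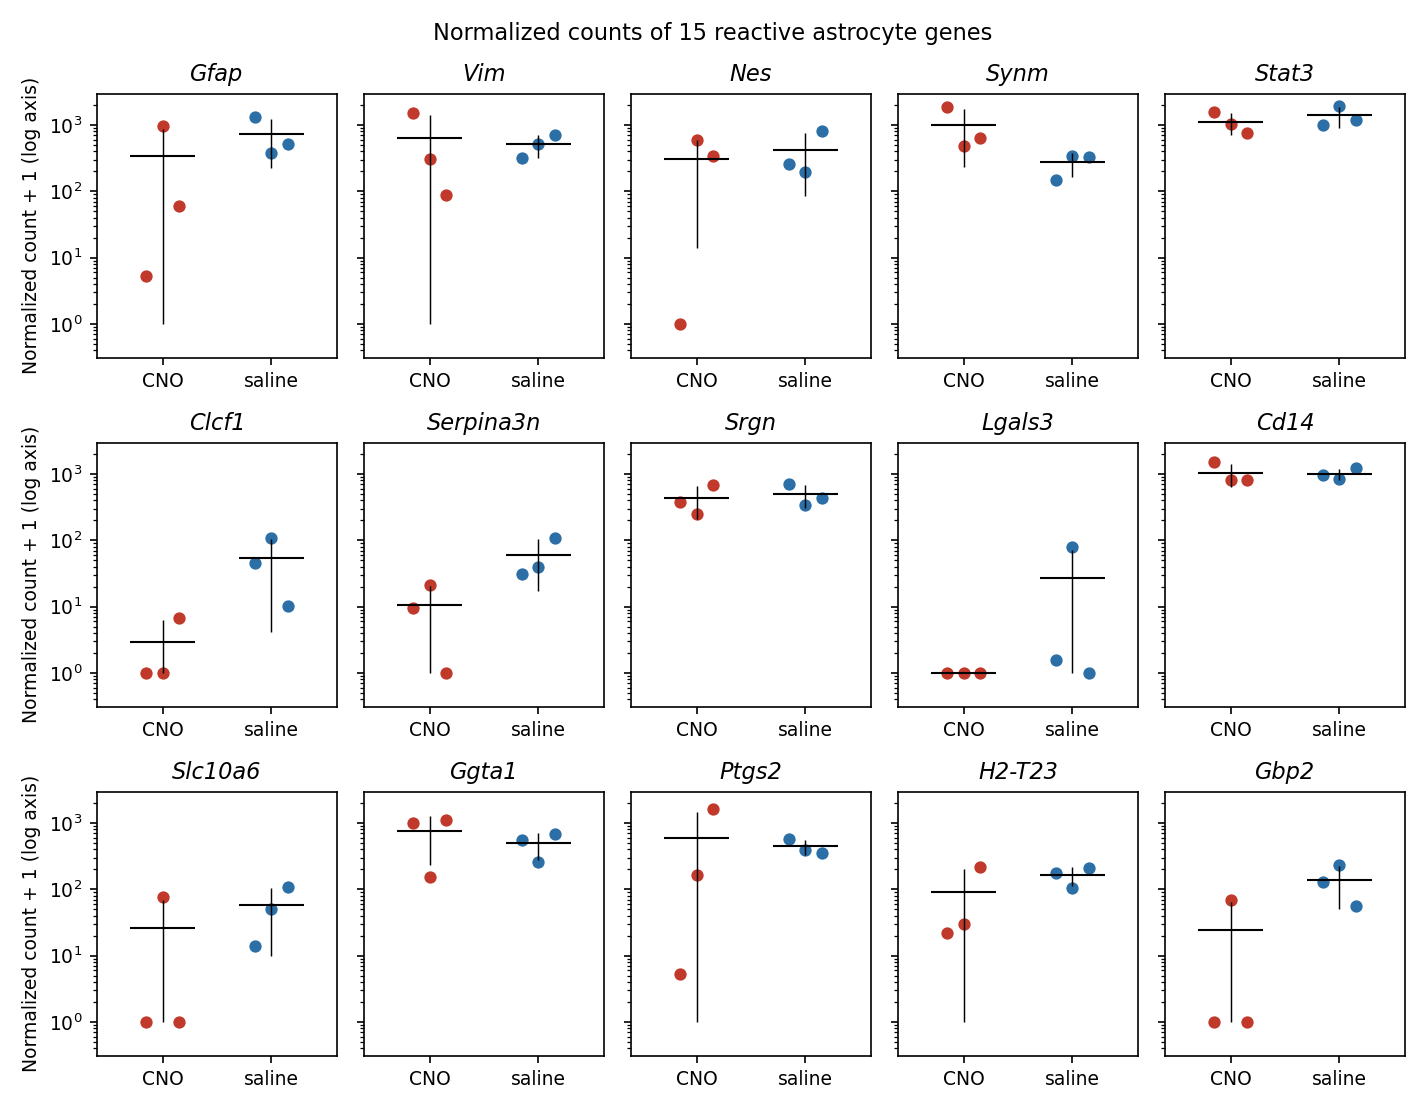
Normalized count plus 1 on a log axis for 15 reactive astrocyte genes, with 1 point per library (CNO red and left, saline blue and right), the mean as a horizontal bar and ±1 SD as a vertical line cut at 1. Synm is higher in all 3 CNO libraries, Serpina3n and Clcf1 are lower in all 3, and the other genes overlap or, for Lgals3, share libraries at 0.

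Cytokine signalling genes were read in different amounts, with the factor and receptor present in every library and the ligand scarce in CNO. Stat3, the transcription factor of the route (chromosome 11, 100885098 to 100939540), had 1564, 1023 and 754.8 normalized counts in CNO and 1011, 1969 and 1205 in saline. The groups overlapped, and the means of 1114 ± 412 in CNO and 1395 ± 506 in saline gave a log2 fold change of -0.33 ± 0.61 (limma adjusted p = 0.843), which was -0.05 without saline 4, -0.08 without CNO 3, -0.61 without CNO 1 and -0.53 without saline 3. Exons of Stat3 share 72 bases with Stat5a on the other strand, which averaged 109.7 in CNO and 199.3 in saline. Osmr, the receptor subunit for oncostatin M, ranged from 175.4 to 452.2 in CNO and averaged 298.8 ± 141, against 299.2 ± 164 in saline. Its log2 fold change was 0.04 ± 0.99 (limma adjusted p = 0.992), an error wide enough to hold a change of either direction.

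Clcf1, a cytokine of the interleukin-6 family that signals through the CNTF receptor (ENSMUSG00000040663.9, chromosome 19, 4214238 to 4223490), had 0, 0 and 5.82 normalized counts in CNO and 43.7, 108.9 and 9.06 in saline. All 3 CNO libraries lay below all saline libraries, but the closest pair was 6 reads in CNO 3 and 18 in saline 5. A zero in CNO 1 allows up to 12.7 normalized counts at the floor of 3 reads, which is above saline 5, and intervals of this kind cover counting error only. The mean was 1.94 ± 3.36 in CNO and 53.9 ± 50.7 in saline, with a log2 fold change of -4.27 ± 1.91 (limma unadjusted p = 0.0463, adjusted p = 0.522, 0.292 to 0.925 over the alternatives). With libraries thinned to the size of CNO 1 the groups of Clcf1 overlapped. Its exons share 311 bases on the same strand with AC109138.7, which is not analysed here.

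Genes of secreted proteins were mostly read little or not at all. Lcn2, the siderophore-binding lipocalin that is among the most strongly induced astrocyte genes in inflammation, had 0 reads in all 6 libraries. The highest limit that a count of 0 allows, at 3 reads, was 12.7 normalized counts in CNO 1. Serpina3n, a serine protease inhibitor (ENSMUSG00000021091.8, chromosome 12, 104406729 to 104414329), had 8.45, 20.0 and 0 normalized counts in CNO and 29.5, 39.2 and 108.7 in saline. Every CNO library lay below every saline library, and this also held after thinning. The CNO values stood for 2, 27 and 0 reads. The means were 9.48 ± 10.0 in CNO and 59.1 ± 43.2 in saline, with a log2 fold change of -3.14 ± 2.05 (limma adjusted p = 0.617, 0.257 to 0.980 over the alternatives). Without CNO 3, the library at 0, it was -1.86.

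Serpina3n and Clcf1 were the 2 of 24 tested genes (8.33%) without overlap and lower in CNO, beside 12.5% of all tested genes. Serpina3n lies in a cluster of similar genes, and its paralogs Serpina3m, Serpina3g and Serpina3i had at most 1.01 normalized counts in any library. Serpina3f, another paralog, was at 0 in the CNO libraries and had 15.9, 0.800 and 25.2 in saline.

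Srgn, the proteoglycan serglycin of secretory granules, had 371.9, 245.6 and 678.1 normalized counts in CNO and 706.9, 340.2 and 437.4 in saline. The groups overlapped (log2 fold change -0.25 ± 0.84, limma adjusted p = 0.917). Lgals3, which encodes galectin-3, had 0 in each CNO library and 0.567, 78.4 and 0 in saline. Saline 4 held 99.3% of the saline total, so the comparison is of 1 library with the rest, and at the floor of 3 reads per CNO library the mean was at least 4.44-fold lower in CNO. Its log2 fold change of -2.32 ± 1.74 did not pass (limma adjusted p = 0.651). The 3 other secreted genes did not reach the mean of 10. Timp1, an inhibitor of metalloproteinases, had reads in saline 5 alone (19.1). Ptx3, a pentraxin, had 0.740 in CNO 2 and 19.2 in saline 4, and Fbln5, a matrix fibulin, had 11.8 in CNO 2 and 12.1 in saline 5.

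Receptors and surface proteins held the most abundant gene of the set per length. Cd14, the co-receptor for lipopolysaccharide, had 1496, 800.6 and 806.2 normalized counts in CNO and 966.0, 826.0 and 1213 in saline. The saline values lay inside the CNO range, with means of 1034 ± 400 in CNO and 1002 ± 196 in saline and a log2 fold change of -0.001 ± 0.62 (limma adjusted p = 0.999). Per kilobase of annotated exon, the mean level of Cd14 was 597.1 in CNO and 578.4 in saline, that of Gfap 80.3 in CNO and 172.9 in saline, and that of Stat3 116.9 in CNO and 146.4 in saline, all in normalized counts. On the same scale the astrocyte glutamate transporter Slc1a2 stood at 15965 in CNO and 10269 in saline, and the myeloid receptor Csf1r at 7853 in CNO and 6476 in saline. Of 15 astrocyte markers 14 stood above Gfap per kilobase in CNO, all but Slc7a10 at 27.6, and 14 in saline, all but Aldh1l1 at 59.3.

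Slc10a6, a transporter of sulfated steroids, had 0, 75.5 and 0 normalized counts in CNO and 13.0, 48.8 and 106.7 in saline. CNO 2 lay inside the saline range and the other CNO libraries below it (log2 fold change -3.31 ± 2.27, limma adjusted p = 0.629). It was -5.40 without CNO 2 and -1.14 in DESeq2. Cd44, the hyaluronan receptor, averaged 54.4 in CNO and 50.4 in saline, and S1pr3, a receptor for sphingosine-1-phosphate, averaged 9.38 in CNO and 29.4 in saline. Amigo2, an adhesion molecule used to mark the inflammation type, averaged 45.02 in CNO and 53.4 in saline. Cd109, a co-receptor that limits TGF-beta signalling, averaged 9.41 in CNO and 23.8 in saline. The log2 fold changes of these 4 genes ran from -2.21 for S1pr3 to -0.52 for Cd109, with errors of 2.07 to 2.35. Tm4sf1, a tetraspanin-like protein of endothelial cells, averaged 175.9 in CNO and 36.7 in saline, yet its log2 fold change was -1.54 ± 2.57 (limma adjusted p = 0.823). The sign turned to 2.21 in edgeR, 2.26 in DESeq2 and 0.13 without CNO 1. CNO 2 held 99.8% of the CNO total of Tm4sf1, which is named here after its values were seen. Emp1, an epithelial membrane protein, did not reach the mean of 10 and averaged 5.84 in CNO and 8.08 in saline.

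Enzymes and the chaperone were split between genes at a moderate level and genes near 0. Ggta1, an alpha-1,3-galactosyltransferase and marker of the inflammation type, had 997.3, 151.7 and 1117 normalized counts in CNO and 558.4, 253.7 and 679.4 in saline. CNO 1 and 3 lay above all saline libraries and CNO 2 below them, with a log2 fold change of 0.27 ± 0.96 (limma adjusted p = 0.923). Ptgs2, which encodes cyclooxygenase-2 and is also an activity-induced gene of neurons, had 4.23, 162.0 and 1619 in CNO and 577.7, 397.0 and 353.3 in saline. CNO 3 was above every saline library and the other CNO libraries below. The mean was 595.1 ± 890 in CNO and 442.7 ± 119 in saline, while the log2 fold change was -1.96 ± 1.75 (limma adjusted p = 0.683) and turned to 0.24 without CNO 1 and to 0.43 in DESeq2.

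Hspb1, a small heat shock chaperone, was singled out after its values were seen. It had 1285 normalized counts in CNO 3, which was 95.8% of its CNO total, and averaged 447.2 ± 726 in CNO and 58.6 ± 22.9 in saline. Its log2 fold change was 0.60 ± 1.96 (limma adjusted p = 0.915). Tgm1, a transglutaminase, averaged 29.8 in CNO, where CNO 2 held all of it, and 54.4 in saline. Steap4, a metalloreductase, averaged 0.247 in CNO and 7.49 in saline, Aspg, an asparaginase, 8.88 in CNO and 3.903 in saline, and B3gnt5, an enzyme of glycosphingolipid synthesis, 0.493 in CNO and 8.56 in saline. Sphk1, a sphingosine kinase, had 0 reads in all 6 libraries, as Lcn2 had.

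Genes induced by interferon were lower on average in CNO without passing the test. Gbp2, a guanylate-binding GTPase (ENSMUSG00000028270.12, chromosome 3, 142620602 to 142638008), had 0, 68.8 and 0 normalized counts in CNO and 125.9, 229.7 and 55.4 in saline. CNO 2 exceeded saline 5 and the other 2 CNO libraries had no read. The means were 22.9 ± 39.7 in CNO and 137.0 ± 87.7 in saline, with a log2 fold change of -4.84 ± 2.26 (limma unadjusted p = 0.0541, adjusted p = 0.533). It was -6.88 without CNO 2 and -2.55 in DESeq2. Values of its paralogs differed in direction. Gbp7 averaged 3902 ± 1762 in CNO and 2124 ± 765 in saline, Gbp3 172.9 ± 144 in CNO and 129.3 ± 53.5 in saline, and Gbp5 147.0 ± 234 in CNO and 296.8 ± 157 in saline. Reads of such paralogs may have been split by the counting.

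H2-T23, a non-classical MHC class I gene, had 21.1, 28.9 and 216.3 normalized counts in CNO and 177.4, 104.9 and 210.9 in saline. CNO 1 and 2 lay below all saline libraries and CNO 3 above them (log2 fold change -1.60 ± 1.54, limma adjusted p = 0.705). The value was -0.98 without CNO 1, -2.63 without CNO 3 and -0.88 in DESeq2. Its relatives H2-T10 and H2-T24 are similar in sequence, so its counts are uncertain. Iigp1, an interferon-induced GTPase, averaged 91.5 ± 85.1 in CNO and 189.8 ± 145 in saline, with a log2 fold change of -0.93 ± 1.65.

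**Figure D4:**
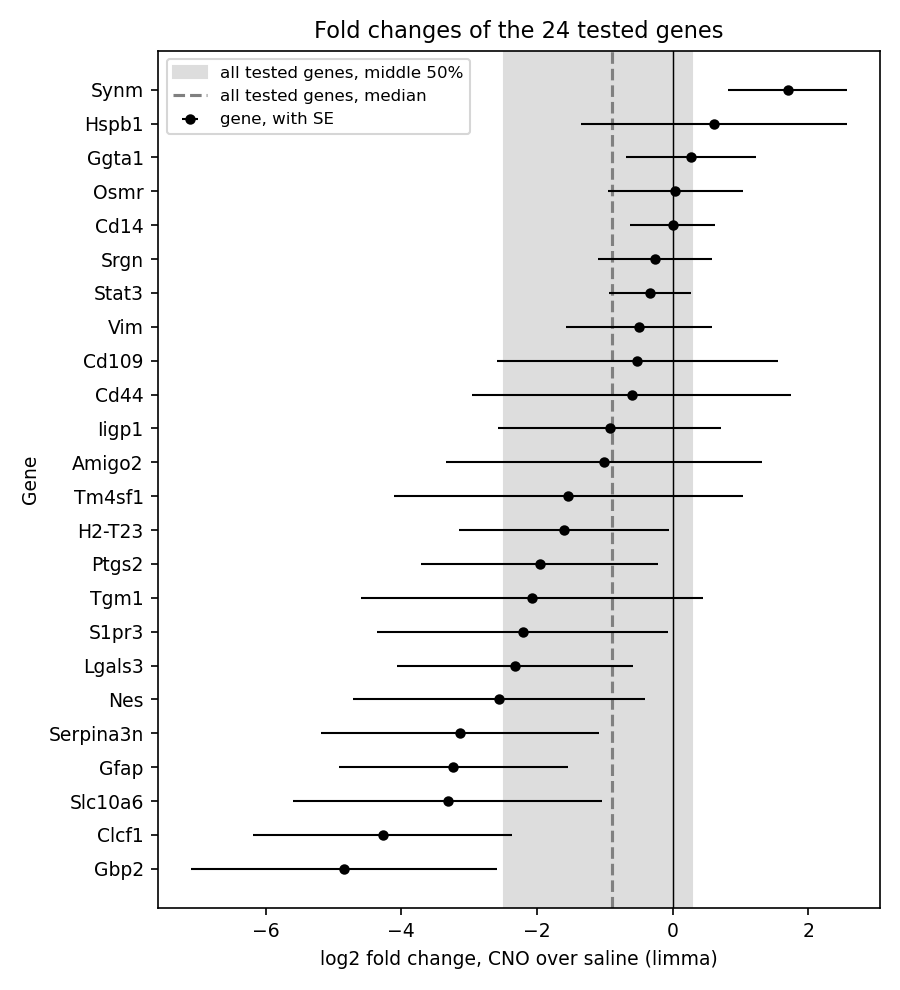
Log2 fold change of CNO over saline from limma with its SE (points and lines, horizontal axis) for the 24 tested reactive astrocyte genes (vertical axis), with the median of all tested genes (dashed, -0.89) and their middle 50% (grey). Synm has the highest value at 1.69 and Gbp2 the lowest at -4.84, and no gene passed the adjusted threshold.

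Fewer of the 33 genes were detected in CNO 1 and 3. At least 1 read was counted for 16, 26 and 18 genes in CNO 1, 2 and 3 and for 24, 27 and 29 in saline 3, 4 and 5. Thinned to the size of CNO 1 the numbers were 16, 25 and 18 in CNO and 23, 25 and 28 in saline, with means of 19.7 ± 4.73 in CNO and 25.3 ± 2.52 in saline. Of the 24 tested genes, 12 (50%) were at 0 in at least 1 CNO library, beside 42.8% of all tested genes, and 2 (8.33%) in at least 1 saline library, beside 7.91%. The 12 tested genes with a read in all 6 libraries were Hspb1, Osmr, Vim, Gfap, Synm, H2-T23, Ggta1, Iigp1, Srgn, Ptgs2, Cd14 and Stat3.

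The share of reads on the set and its summed level went different ways. The 33 genes took 0.0527%, 0.0410% and 0.0485% of reads in CNO and 0.0728%, 0.0714% and 0.0757% in saline, without overlap. Of reads outside 10 oligodendrocyte markers, a denominator chosen after the data were seen, the share averaged 0.0578% ± 0.00303 in CNO and 0.0784% ± 0.00329 in saline. In normalized counts the sum was 8710, 5837 and 8055 in CNO and 7179, 6865 and 7259 in saline, where the groups overlapped. A direction for the whole set therefore depends on the scaling. Stat3 had the most reads of the set when reads were summed over all libraries, though not in each library. Without Stat3 the share averaged 0.0404% in CNO and 0.0589% in saline.

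**Figure D5:**
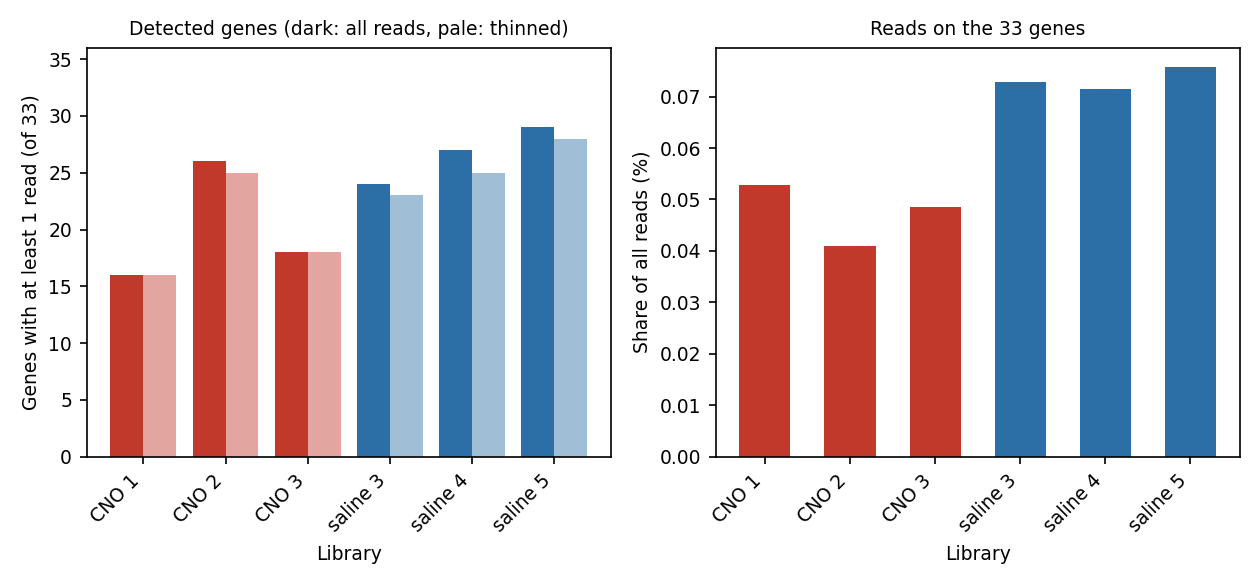
Left, the number of the 33 reactive astrocyte genes with at least 1 read in each library (CNO red, saline blue), with all reads (dark) and thinned to the smallest library (pale). Right, the share of all reads that fell on the 33 genes in percent, which is lower in the 3 CNO libraries (0.0410% to 0.0527%) than in the saline libraries (0.0714% to 0.0757%).

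Upstream of the set, 0 of 19 tested inducers and receptors were called by limma in either direction, and 0 were higher and 3 lower at an unadjusted p under 0.05, beside 2.28% and 7.25% of all tested genes. Il1a, a microglial inducer of the inflammation type, had 3461, 340.4 and 968.2 normalized counts in CNO and 3180, 4482 and 4319 in saline, so CNO 1 lay within the saline range (log2 fold change -1.92 ± 0.75, limma adjusted p = 0.491). Tnf, another of these inducers, had 260.4 in CNO 2 and 0 in the other CNO libraries, against 226.98 to 767.6 in saline (-6.26 ± 2.30, limma adjusted p = 0.488). C1qa, a gene of C1q named here after its values were seen, averaged 1875 ± 1033 in CNO and 1264 ± 613 in saline. The groups of C1qa overlapped (log2 fold change 0.51 ± 0.66, limma adjusted p = 0.769). Of the 19 genes, 6 had a log2 fold change above 0 and 13 below it. Lif, a cytokine of the interleukin-6 family, had 0 in every CNO library and 51.02, 4.002 and 5.54 in saline (limma adjusted p = 0.519). It reached the mean of 10 through the saline libraries alone. Tgfbr1, a TGF-beta receptor, stood at -0.96 ± 0.45 and Ednrb, the endothelin receptor of astrocytes, at 0.80 ± 0.40 on the log2 scale.

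Among the signalling genes and factors, 0 of 19 were called by limma, with 1 higher and 3 lower at an unadjusted p under 0.05, beside the same shares of all genes. DESeq2 called 1 higher and 1 lower, beside 0.53% and 1.38% of all genes. Ptpn11, the phosphatase SHP2 that acts on receptor signalling, had 4598, 4215 and 3680 normalized counts in CNO and 572.6, 846.9 and 1108 in saline. Every CNO library lay above every saline library, with a log2 fold change of 2.35 ± 0.51 (limma adjusted p = 0.488, DESeq2 adjusted p = 0.0185). Ikbkb, a kinase that activates NF-kappa B, had 88.7, 61.4 and 12.6 in CNO and 1010, 869.3 and 602.4 in saline. It too showed no overlap, with a log2 fold change of -4.26 ± 1.19 (limma adjusted p = 0.488, DESeq2 adjusted p = 0.00321). Without overlap, 4.57% of all tested genes were higher in CNO and 12.5% lower. Relb, an NF-kappa B subunit, stood at -4.96 ± 1.88, Fosl2, an AP-1 subunit, at -5.30 ± 2.12 and Nfkb2 at -4.63 ± 2.45, none past the threshold in either tool. Relb averaged 1.97 normalized counts in CNO and reached the mean of 10 through the saline libraries alone.

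Limma called 0 of 29 other tested genes linked to astrocyte reactivity. At an unadjusted p under 0.05 in limma, 0 were higher and 4 lower, beside 2.28% and 7.25% of all tested genes. The 4 were C3, Plaur, Thbs1 and S100a10, which averaged 0, 1.06, 8.58 and 0 normalized counts in CNO. They reached the mean of 10 through the saline libraries alone. Counts of lower genes, in limma and in DESeq2, therefore describe these genes and are not a test of the list. DESeq2 called 0 higher and 2 lower, beside 0.53% and 1.38% of all tested genes. These were C3, complement component 3 and a widely used marker of the inflammation type with 0 normalized counts in each CNO library and 142.9, 257.7 and 159.0 in saline (limma adjusted p = 0.488, DESeq2 adjusted p = 1.31e-04), and Plaur, the urokinase receptor (DESeq2 adjusted p = 9.3e-05). Plaur had 0, 2.22 and 0.970 normalized counts in CNO and 165.0, 637.9 and 90.6 in saline, which do not overlap (log2 fold change -6.85 ± 1.96, limma adjusted p = 0.488). Thbs1, a secreted thrombospondin, had 0, 1.48 and 24.3 in CNO and 358.3, 225.7 and 81.5 in saline, also without overlap (limma adjusted p = 0.488). Such a lack of overlap, lower in CNO, was seen for 12.5% of all tested genes. S100a10, a calcium-binding protein of the injury type, had 0 in the CNO libraries and 43.1, 0.800 and 27.7 in saline (limma adjusted p = 0.523). Serping1, a complement inhibitor of the inflammation type, had a mean of 2.47 ± 4.27 in CNO and 49.95 ± 40.4 in saline, with adjusted p = 0.550 in limma.

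Markers of other cells were present beside those of astrocytes, and fewer cells of a type cannot be told apart from less RNA per cell in such samples. All 15 astrocyte markers were read, with Slc1a2, Aldoc and Slc1a3 the most abundant, and their sum ran from 171140 to 608420 normalized counts in CNO and from 193760 to 293880 in saline. All 14 microglia and macrophage markers were tested and 0 called, with Csf1r, Mrc1 and P2ry12 the most abundant. At an unadjusted p under 0.05 in limma, 2 were higher and 1 lower, beside 2.28% and 7.25% of all tested genes. These markers are named here after their values were seen. Mrc1 and Pf4, markers of border macrophages, had log2 fold changes of 1.08 ± 0.33 and 1.603 ± 0.48, and Sall1, a factor of microglia, had -1.79 ± 0.61 (limma adjusted p = 0.488 for each), all without overlap. Without overlap, 4.57% of all tested genes were higher in CNO and 12.5% lower. The sum of the 14 microglia and macrophage markers ran from 92761 to 228030 in CNO and from 117920 to 146870 in saline. The 10 endothelial markers summed to 3334 to 6845 in CNO and 3401 to 4510 in saline, and the 8 fibroblast markers to 3202 to 7240 in CNO and 2146 to 4855 in saline. The 10 oligodendrocyte markers summed to 1837600 to 3478700 in CNO and 523980 to 748480 in saline, and 2 of them, Mbp and Mobp, were called higher. Most of that sum was Mbp, with 1585700 to 2963000 in CNO and 451370 to 604100 in saline. Of the 10 markers, 7 had a log2 fold change above 0 and 3 below it. The 3 were Mag at -2.28, Cldn11 at -1.64 and Opalin at -0.38, each with overlapping groups. Cd3e and S100a8, markers of T cells and neutrophils, were at 0 in all libraries. The sum of neuron markers ran from 2141 to 3340 in CNO and 1584 to 3032 in saline, that of oligodendrocyte precursor markers from 2639 to 9849 in CNO and 1572 to 3072 in saline, and that of mural cell markers from 897.5 to 2392 in CNO and 844.5 to 1787 in saline. Ependymal and choroid plexus markers ran from 99.9 to 2582 in CNO and 213.2 to 3098 in saline. The part of these cells in the levels of Cd14, Srgn, Vim, Gbp2 and the other genes of the set was not tested.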

How the data were processed

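RNA of sorted cells was sequenced in 6 libraries from 10 ng of total RNA each, per the labels' protocols. The submitters' processing notes name STAR 2.5.0a, Trimmomatic 0.4, DESeq2 1.20.0, MultiQC 0.9, FastQC 0.10.1 and build mm10. How reads were assigned to genes, with which annotation and with or without strand, is not given in the sources. The unit deposited by the authors is a normalized signal, with reads per gene scaled by a library's size factor. As 100% of values in every library were whole multiples of 1 step (tolerance 1e-06 reads), reads could be recovered from them. All columns matched a library, and 0 were left over.

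With R 4.3.3, log2(normalized count + 1) was tested in limma 3.58.1 for 13028 genes (mean 10 or more), with a variance trend, 2-sided, with Benjamini-Hochberg adjustment over all of them. Log2 fold changes are differences of mean log2 values, and the added 1 shrinks them for low genes. A library at 0 can still make them larger than the ratio of means, or turn their sign. Recovered reads served edgeR 4.0.16 (quasi-likelihood), limma-voom, DESeq2 1.42.0 and thinning to 3908076 reads. The methods were also run on simulated data to check the code. The simulated spread was the same for both groups, unlike in these libraries, so it gives no measure of power here. The 33 genes and the lists were chosen with earlier results of these data known. Values in every library are given for genes without overlap, the 10 with the smallest p, the 8 with the highest mean, and Gfap, Stat3, Serpina3n and Lcn2. Up to 5 genes with the smallest p were named per upstream list and up to 3 with the highest mean per cell type. C1qa and some further cell type markers were named besides these. Coordinates and exon lengths are GENCODE M21 (GRCm38), and promoters are RefSeq (GRCm38.p6). Figures were drawn with matplotlib 3.10.9.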

Additional observations from a re-analysis of the deposited data

How the results depend on the processing

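No reactive astrocyte gene was called in either direction under any alternative that was run (other pseudocounts, filters, scalings, weights or tools, thinning, and each library left out). The count of these genes lower at an unadjusted p under 0.05, 1 here, was 0 with a pseudocount of 8, a mean of at least 50, quantile scaling, array weights, thinning, edgeR and DESeq2, 2 without the variance trend, and 0 to 4 with 1 library left out, the 4 without CNO 2, where 16.3% of all genes were lower. Over all genes 9.82% were lower without the variance trend. One was higher at that p in DESeq2. Calls over all genes, 2 here, were 0 with a mean of at least 50, quantile scaling, no variance trend and edgeR, 11 with array weights, 16 in limma-voom and 249 in DESeq2, and 0 to 2 with 1 library left out. Upstream and related genes called were 4 in DESeq2 and 0 here. The median log2 fold change of the tested genes, -1.27 here, was -0.32 with quantile scaling, -0.38 in DESeq2, -0.48 in edgeR, -0.55 with a mean of at least 50, -0.67 with a pseudocount of 8 and -1.50 to -0.89 with 1 library left out. The median of all genes, -0.89 here, was -0.08 with quantile scaling, 0.0044 in DESeq2, -0.11 in edgeR, -0.57 with a mean of at least 50 and -0.55 with a pseudocount of 8. Genes without overlap and lower were 1 after thinning and 2 to 6 with 1 library left out, and those higher 1 to 2. Over all genes 12% were lower and 4.51% higher after thinning, and with 1 library left out 16.1% to 27.3% were lower and 5.86% to 10.9% higher. The share of reads without Stat3 was 0.0404% in CNO and 0.0589% in saline, and of reads outside the oligodendrocyte markers, a setting chosen after seeing the data, 0.0578% and 0.0784%.

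Among the genes with values in every library, the log2 fold change turned for Cd14 with TMM scaling (4.03e-04), thinning (0.035) and DESeq2 (0.0466), for Ggta1 with quantile scaling (-0.0574), array weights (-0.14) and limma-voom (-0.30), for Lgals3 with quantile scaling (0.089), for Ptgs2 in edgeR (0.36) and DESeq2 (0.43), and for Vim in edgeR (0.0989) and DESeq2 (0.31). With 1 library left out it ran from -0.30 to 0.15 for Cd14, -0.23 to 1.201 for Ggta1, -4.22 to 0.38 for Nes, -3.89 to 0.24 for Ptgs2, -0.64 to 0.0891 for Srgn and -1.56 to 0.49 for Vim. Among the other tested genes it turned for Tm4sf1 in edgeR (2.21), DESeq2 (2.26), array weights (0.0786) and quantile scaling (2.06), for Osmr in edgeR (-0.15), DESeq2 (-0.0042), limma-voom (-0.17) and array weights (-0.28), and for Cd44 in DESeq2 (0.11), with thinning (0.19), a pseudocount of 8 (0.0296) and quantile scaling (1.38). Quantile scaling also turned S1pr3 (0.46), Amigo2 (0.99), Tgm1 (0.24) and Cd109 (1.76). With 1 library left out Hspb1, Osmr, Tm4sf1, Cd44, Amigo2 and Cd109 turned as well. The cause was not tested. No paired analysis was run, as replicate numbers are not stated to mark pairs and the groups share only number 3. Depth limits CNO 1 most, where a count of 0 allows up to 12.7 normalized counts.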
